A study of Mus musculus with 8 samples.

Results

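The TNF and NF-kappaB feedback genes examined here were Tnf, its receptors Tnfrsf1a and Tnfrsf1b, the NF-kappaB subunits Nfkb1 and Nfkb2, and the inhibitors and negative regulators Nfkbia, Nfkbiz and Tnfaip3. The 8 members were named as a list, with earlier results of these data known, among the 21755 genes listed in any count table, and all 8 were present in every library and passed the filter on low counts in every population tested. CD45+ cells, the common surface mark of white blood cells, had been sorted from full-thickness skin wounds of male C57BL/6J mice for single-cell RNA sequencing. The diabetic wound group came from mice given streptozotocin at 120 mg/kg and 4 weeks of age after 12 h of fasting, and counted as diabetic from a blood glucose of 16.5 mmol/L 7 days later, while the control group had wounds without diabetes. Each group was sampled on days 1, 3, 5 and 7 with 1 library per day, and each library pooled the wounds of several mice, so that no single day has replicates and differences between individual mice cannot be seen. Streptozotocin kills insulin-producing beta cells and is a model of insulin deficiency. The labels carry the streptozotocin text for all samples, and each library was assigned by its title, whose wound type the treatment label also gives.

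TNF is a cytokine released early in inflammation, and in wounds it comes largely from myeloid cells. Binding to its receptor TNFR1, encoded by Tnfrsf1a on most cells, or TNFR2, encoded by Tnfrsf1b mainly on immune cells, frees NF-kappaB dimers from their inhibitors so that they enter the nucleus. NF-kappaB then raises transcription of Tnf itself and of genes that end the signal, namely Nfkbia (IkappaB-alpha, which holds NF-kappaB in the cytoplasm), Tnfaip3 (A20, an enzyme that edits ubiquitin chains on the receptor complex) and Nfkbiz (IkappaB-zeta, a nuclear cofactor that both assists and limits target genes). Nfkb1 and Nfkb2 encode the precursors p105 and p100, which act as inhibitors until they are processed to p50 and p52.

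In GRCm38 the members lie on 8 chromosomes. Tnf has 4 exons at chr17:35199381-35202007 on the minus strand, Tnfrsf1a 10 exons at chr6:125349362-125362484 on the plus strand and Tnfrsf1b 10 exons at chr4:145213463-145246870 on the minus strand. Nfkb1 has 25 exons at chr3:135584655-135691547 on the minus strand and Nfkb2 23 exons at chr19:46304320-46312385 on the plus strand. Nfkbia has 6 exons at chr12:55489410-55492647, Nfkbiz 14 exons at chr16:55811375-55838899 and Tnfaip3 9 exons at chr10:19000910-19015657, all on the minus strand. The counts were made per gene, and no exon or isoform can be read from them.

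Because feedback genes are targets of the factor they restrain, the 250 bases before the first listed RefSeq start are printed for 3 members. These hold a match to the kappaB consensus of 10 bases there. They run 5′ to 3′ in the direction of the gene, with matches on either strand in capitals. The windows, of build GRCm38.p6, are chr19:46304487-46304736 on the plus strand for Nfkb2, chr12:55492648-55492897 on the minus strand for Nfkbia and chr10:19015411-19015660 on the minus strand for Tnfaip3.
Nfkb2: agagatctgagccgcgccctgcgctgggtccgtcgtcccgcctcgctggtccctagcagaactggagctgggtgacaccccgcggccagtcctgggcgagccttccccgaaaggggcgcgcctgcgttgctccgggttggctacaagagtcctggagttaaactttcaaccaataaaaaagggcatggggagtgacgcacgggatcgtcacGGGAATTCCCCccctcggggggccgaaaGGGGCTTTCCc
Nfkbia: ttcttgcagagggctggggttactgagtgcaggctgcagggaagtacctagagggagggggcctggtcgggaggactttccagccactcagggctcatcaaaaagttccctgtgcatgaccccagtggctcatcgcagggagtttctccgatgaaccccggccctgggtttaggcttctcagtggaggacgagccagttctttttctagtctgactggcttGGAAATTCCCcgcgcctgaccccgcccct
Tnfaip3: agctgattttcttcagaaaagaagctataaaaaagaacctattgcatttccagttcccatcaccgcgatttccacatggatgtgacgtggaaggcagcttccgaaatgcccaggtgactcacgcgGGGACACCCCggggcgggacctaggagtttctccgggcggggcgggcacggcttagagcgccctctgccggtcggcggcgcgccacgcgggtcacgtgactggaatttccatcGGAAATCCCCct
A promoter entry was found for 6 of the 8 members, and 3 of these 6 held the consensus in the 250 bases before the start, beside 7.01% of 27025 genes with an entry. Nfkb2 had 3 promoter entries and Tnfaip3 had 2. The further windows of Nfkb2 also held a match, while the second window of Tnfaip3, chr10:19011964-19012213, held 0. No match lay in the windows of Tnf, Tnfrsf1a and Tnfrsf1b, which says only that these letters are not in those bases. Overlapping matches were counted, and a match is a description of the sequence and not a measured binding site.

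A total of 35215 of 38959 barcodes passed the filters, and the tables held between 19236522 and 33842509 UMIs (unique molecular identifiers, each counting 1 captured RNA molecule) per library. The control library of day 5 stood apart, with 28.5% of barcodes removed against 1.00% to 10.6% in the other 7 and with a median of 8219 UMIs per cell. Cells fell into 20 clusters, 19 of which were named from markers. In the neutrophil-like class all 8 neutrophil markers were detected in every library, while the sums of other marker lists there reached 10371 CPM for macrophages, 6736 for dendritic cells, 1899 for monocytes, 1734 for osteoclasts and 625 for fibroblasts, each in the control library of day 5 or day 7. The sums of the remaining lists were at most 256. Levels are given as CPM, the UMI counts per 1000000 UMIs of the library or class, a scale that compares a gene with itself between samples and not with other genes.

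Over all CD45+ cells, Tnf was highest on day 1 in both groups and fell further in the control group. The diabetic libraries held 2443, 1969, 1932 and 1227 CPM of Tnf on days 1, 3, 5 and 7, and the control libraries 2673, 1319, 622 and 589. The day 1 level was 1.99 times that of day 7 in the diabetic wound group (95% counting interval 1.96 to 2.02) and 4.54 times in the control group (4.46 to 4.61). Intervals here and throughout are exact and cover counting error only, not differences between mice. In bulk sums of this kind, fewer cells of a type and less RNA per cell cannot be told apart, and the share of neutrophil-like cells went from 51.3%, 49.3%, 45.8% and 20.7% on the successive days in the diabetic wound group to 60.0%, 41.6%, 8.19% and 23.7% in the control group. Neutrophil-like cells carried 58.2%, 61.4%, 68.7% and 34.4% of all Tnf UMIs on the successive days in the diabetic wound group and 72.2%, 49.0%, 5.31% and 20.8% in the control group.

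Among the classes, the neutrophil-like cells had the highest median level over libraries of 7 of the 8 members, and T cell-like cells that of Nfkb1. Tnf ranged from 754 to 4837 with a median of 3471 CPM in neutrophil-like cells. Its median was 1618 in monocyte-like, 1046 in macrophage-like, 370 in T cell-like and 362 in dendritic-like cells. Neutrophil-like cells exceeded monocyte-like cells in 6 of the 8 libraries, the exceptions being the control libraries of days 5 and 7, so the ranges of these neighbours overlapped. Among these 5 classes, Nfkbia and Nfkbiz were the members whose neutrophil-like range lay wholly above the others. Nfkbia ran from 4103 to 8775 there and reached 3461 in monocyte-like cells, and Nfkbiz ran from 1270 to 4676 and reached 1134 in monocyte-like cells. Mast cell-like cells, measured in 4 libraries, overlapped the Nfkbiz range at 1090 to 2533.

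**Figure D1:**
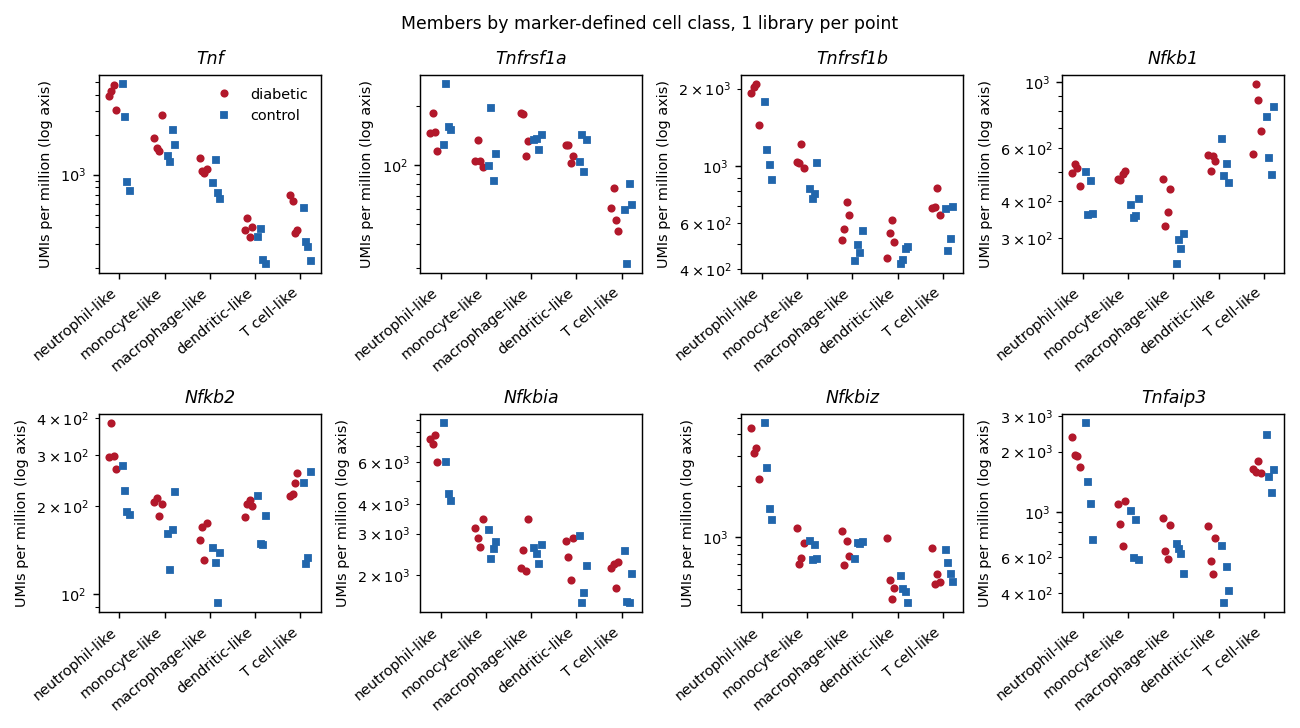
CPM (log axis) of the 8 members in 5 marker-defined classes, 1 point per library, diabetic as red circles and control as blue squares. Neutrophil-like points reach highest for every member except Nfkb1, and for Nfkbia and Nfkbiz they lie wholly above those of the other 4 classes.

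The receptors were unevenly spread. Tnfrsf1b had a median of 1610 CPM in neutrophil-like, 1006 in monocyte-like, 686 in T cell-like, 539 in macrophage-like and 482 in dendritic-like cells. Tnfrsf1a was flatter, with medians of 149 in neutrophil-like, 136 in macrophage-like, 119 in dendritic-like and 105 in monocyte-like cells, and its ranges overlapped between these neighbours. T cell-like cells held the least Tnfrsf1a among those 5 classes, with a median of 60.1.

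Among the named classes measured in every library, T cell-like cells stood out for Nfkb1 and Tnfaip3. Nfkb1 had a median of 727 CPM there, against 536 in dendritic-like, 481 in neutrophil-like, 438 in monocyte-like and 320 in macrophage-like cells. The T cell-like clusters differed, with a median of 1038 in cluster 12, led by Trdc and Il17f, and of 511 in cluster 10, led by Ctla4 and Trac, which held 1420 cells against 1031 in cluster 12. Tnfaip3 had a median of 1603 in T cell-like and 1788 in neutrophil-like cells, and the order of these 2 classes changed between libraries, with neutrophil-like cells higher in 5 of 8. In the control library of day 7 the T cell-like level of Tnfaip3 was 224% of the neutrophil-like level. Dendritic-like cells had the lowest median of Tnfaip3 among these classes, at 554. Classes measured in fewer libraries came near the T cell-like levels. Mast cell-like cells had a median of 629 for Nfkb1, and T cell-like cells were higher in 2 of 4 libraries with both. Natural killer cell-like cells had a median of 1430 for Tnfaip3, and T cell-like cells were higher in 4 of 6.

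The neutrophil genes S100a8, S100a9 and Retnlg, which other classes should lack, were used as a gauge of free RNA from neutrophils. In T cell-like, dendritic-like and natural killer cell-like cells the gauge reached a median of 1.05% to 8.85% of the neutrophil-like level in the different libraries. Tnf in T cell-like cells was 7.71% to 32.6% of the neutrophil-like level, and Tnf in dendritic-like cells 7.05% to 28.2%. In natural killer cell-like cells it was 5.67% to 23.1% in the 6 libraries measured. The Tnf share of these 3 classes lay above the gauge taken over the classes together in every library measured, but by little in some. In the control library of day 1 it was 6.62% in natural killer cell-like and 7.05% in dendritic-like cells against a gauge of 6.13%. In the natural killer cell-like cells of that library S100a8, S100a9 and Retnlg stood at 6.13%, 6.95% and 7.97%. The Tnf share there was thus below those of S100a9 and Retnlg. In the diabetic library of day 5 the Tnf share was 5.67%, 7.27% and 7.71% in natural killer cell-like, dendritic-like and T cell-like cells against 4.90%.

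In neutrophil-like cells Tnf parted between the groups after day 1. The diabetic libraries held 3869, 4229, 4680 and 3073 CPM on days 1, 3, 5 and 7 and the control libraries 4837, 2703, 879 and 754. Diabetic cells were lower on day 1, at 0.80 times the control level (0.787 to 0.813), and higher later, by 1.56 (1.53 to 1.6), 5.32 (4.99 to 5.68) and 4.07 (3.93 to 4.23) times. The ranges of the groups overlapped because the control library of day 1 was the highest of all 8. The share of cells with at least 1 Tnf UMI, after thinning each cell to 1000 UMIs, was 74.9%, 68.9%, 68.0% and 64.5% in diabetic and 76.3%, 48.4%, 41.3% and 41.9% in control libraries. Without thinning it was 81.6% to 86.8% and 61.2% to 88.5%, at median depths of 2157 to 2894 UMIs per cell. Dendritic-like cells, a class of lower Tnf, gave 25.3% to 33.1% and 13.6% to 31.7% after thinning, a share from which free RNA was not removed and which is therefore no measure of background alone.

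**Figure D2:**
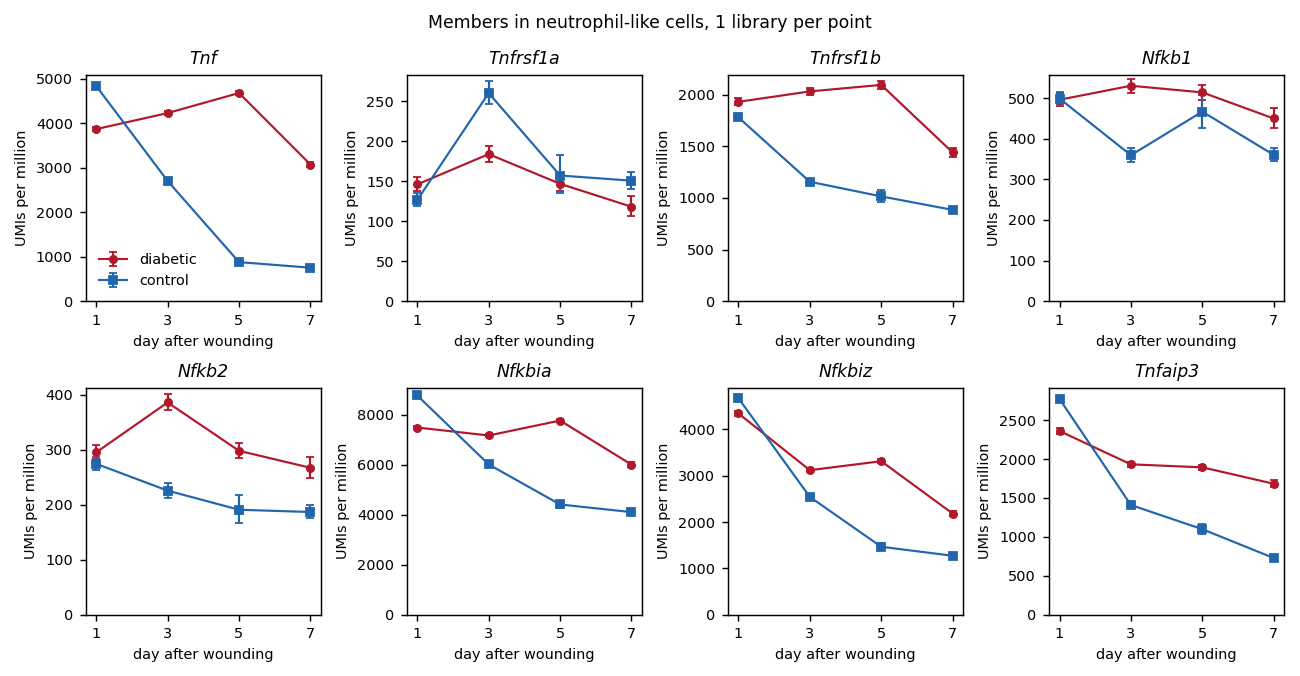
CPM of each member in neutrophil-like cells by day after wounding, 1 library per point, diabetic in red and control in blue, with exact 95% counting intervals as bars. The control lines of Tnf, Nfkbia, Nfkbiz and Tnfaip3 start above the diabetic lines on day 1 and lie below them from day 3.

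The receptor Tnfrsf1b followed a similar course without the reversal on day 1. It stood at 1929, 2030, 2093 and 1440 CPM in diabetic and 1779, 1156, 1015 and 884 in control neutrophil-like cells, with ratios of 1.08, 1.76, 2.06 and 1.63. Tnfrsf1a did not share this pattern, with 146, 184, 147 and 118 in diabetic and 127, 261, 157 and 151 in control cells. Its ratio was above 1 on day 1, below 1 on days 3 and 7, and on day 5 the interval of 0.793 to 1.10 spanned equality.

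The inhibitors showed the same order of groups as Tnf on each day. Nfkbia stood at 7491, 7172, 7772 and 6006 CPM in diabetic and 8775, 6012, 4409 and 4103 in control neutrophil-like cells, with ratios of 0.854, 1.19, 1.76 and 1.46. Nfkbiz stood at 4346, 3120, 3314 and 2184 in diabetic and 4676, 2543, 1465 and 1270 in control cells, with ratios of 0.929, 1.23, 2.26 and 1.72. Tnfaip3 stood at 2361, 1932, 1894 and 1683 in diabetic and 2773, 1409, 1098 and 727 in control cells, with ratios of 0.851, 1.37, 1.72 and 2.31. For these 3 inhibitors the diabetic level was thus below the control level on day 1 and above it from day 3 onward.

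Both subunits were higher in the diabetic libraries from day 3 onward, except that for Nfkb1 on day 5 the ratio of 1.10 was 0.945 with no regression of depth before clustering and 1.01 (0.901 to 1.13) in cells with under 0.5% of their UMIs from macrophage markers. Nfkb1 stood at 496, 530, 514 and 450 CPM in diabetic and 499, 359, 467 and 360 in control neutrophil-like cells, and on day 1 its ratio of 0.994 (0.949 to 1.04) spanned equality. Nfkb2 stood at 295, 386, 298 and 267 in diabetic and 274, 226, 191 and 187 in control cells, with ratios of 1.08, 1.71, 1.56 and 1.43.

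Across the 4 days, with day as a block in edgeR's quasi-likelihood test, no member differed between the groups after Benjamini-Hochberg adjustment over all genes. In neutrophil-like cells the fitted log2 difference (diabetic minus control) of Tnf was 1.35 ± 0.55 (SE, 4 libraries per group), with an adjusted p of 0.54, and over the alternatives its adjusted p ran from 0.023 to 0.999 and the difference itself from 0.57 to 1.97. With single days left out it ran from 0.75 to 1.97, that of Nfkbia from 0.17 to 0.80 and that of Nfkbiz from 0.30 to 1.01. That of Tnfrsf1b ran from 0.53 to 1.11, that of Tnfaip3 from 0.46 to 1.08, that of Nfkb2 from 0.45 to 0.90 and that of Nfkb1 from 0.27 to 0.60. The values over all 4 days were 0.82 ± 0.32 for Tnfrsf1b, 0.66 ± 0.25 for Nfkb2, 0.71 ± 0.36 for Tnfaip3, 0.68 ± 0.38 for Nfkbiz, 0.50 ± 0.38 for Nfkbia, 0.40 ± 0.24 for Nfkb1 and -0.04 ± 0.22 for Tnfrsf1a. When cells were named singly from markers, they were 0.94 for Tnf, 0.56 for Tnfrsf1b, 0.43 for Nfkb2 and 0.40 for Tnfaip3. Those of Nfkbiz, Nfkbia, Nfkb1 and Tnfrsf1a were then 0.33, 0.17, 0.25 and -0.23. In the main fit the values of the members centred higher than those of other genes. Their median over the 8 members was 0.67, beside -0.01 over all 10853 genes tested. These medians are a description and no test, since the members were named with earlier results of these data known. In this class 3 members had an unadjusted p under 0.05, beside 8.69% of all genes. DESeq2 called 0 members after adjustment and 0.378% of all genes, and edgeR called 0.0184% of all genes. The counts of called members were likewise 0 over all cells, where 0% of genes were called, and in monocyte-like (0.0195%), macrophage-like (0.037%), dendritic-like (0.0101%) and T cell-like cells (0%). At an unadjusted p under 0.05 these 5 populations had 4, 3, 4, 2 and 1 members, beside 11%, 7.67%, 8.77%, 6.03% and 2.76% of all genes, and DESeq2 called 0 members in each, beside 0.628%, 0.186%, 0.454%, 0.151% and 0.0112% of all genes.

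**Figure D3:**
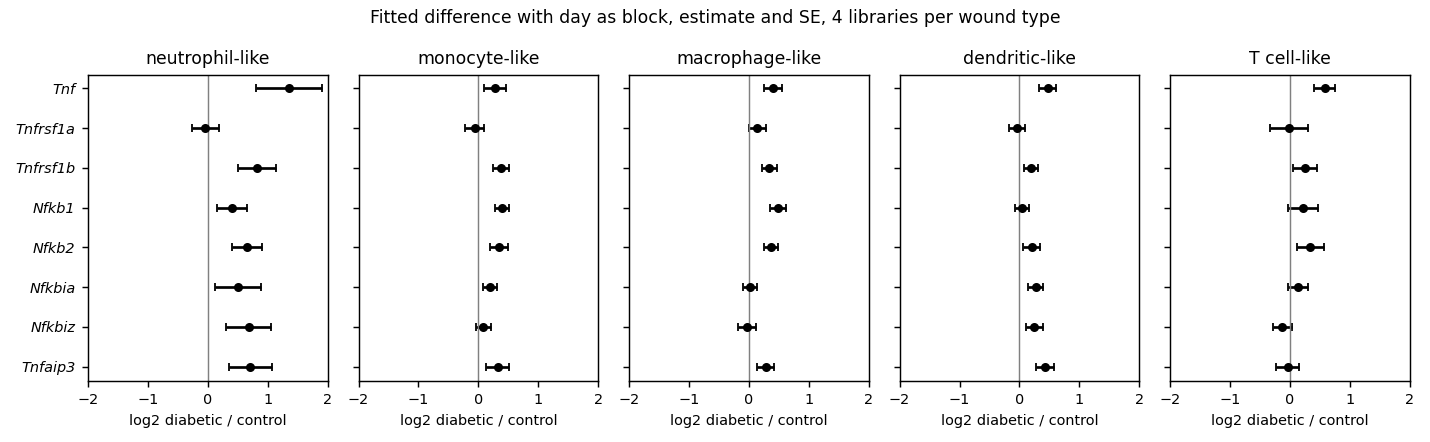
Fitted log2 difference, diabetic over control, of each member in 5 classes from edgeR with day as block, as estimate and SE over 4 libraries per group. Tnf in neutrophil-like cells has the highest estimate, 1.35, and no member passed the adjusted threshold in any of these classes.

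Outside the neutrophil-like cells, Nfkb1 was the member whose groups did not overlap. In monocyte-like cells it stood at 474, 469, 493 and 502 CPM in diabetic and 387, 350, 356 and 406 in control libraries, and in macrophage-like cells at 473, 330, 367 and 439 against 245, 296, 277 and 310. Every diabetic library thus lay above every control library in both classes, as did 1.32% of all genes in monocyte-like and 1.48% in macrophage-like cells. The fitted log2 differences were 0.39 ± 0.11 with an adjusted p of 0.45 in monocyte-like cells, and 0.48 ± 0.13 with an adjusted p of 0.31 in macrophage-like cells (edgeR). Over the alternatives they ran from 0.35 to 0.59 in monocyte-like and from 0.25 to 0.60 in macrophage-like cells. Over all cells Nfkb1 and Nfkb2 were the members without overlap, beside 1.74% of all genes. For Nfkb2 the margin lay within counting error, the lowest diabetic level being 210.5 CPM on day 7 (204 to 217) and the highest control level 210.2 on day 1 (204 to 217).

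Tnf itself varied by day in the other classes. Monocyte-like cells held 1896, 1573, 1505 and 2817 CPM in diabetic and 1380, 1244, 2179 and 1663 in control libraries, so that on day 5 the control level was the higher, with a ratio of 0.691 (0.658 to 0.725). The class sat in different clusters on that day, with 235, 310 and 70 diabetic cells in clusters 4, 9 and 14 against 73, 17 and 15 control cells, and Tnf had a median of 2316 in cluster 4 and 863 in cluster 9. Within cluster 4 it was 2689 in the diabetic and 2874 in the control library of day 5. On day 3 clusters 4 and 9 held 424 and 254 diabetic cells against 136 and 300 control cells. Macrophage-like cells held 1324, 1069, 1022 and 1100 in diabetic and 861, 1282, 732 and 654 in control libraries, with the control higher on day 3, and the day 1 ratio turned to 0.878 at a clustering resolution of 0.4. At that resolution the class was another set of cells, a cluster of 5253 led by Gm26917 and Ms4a7. A cluster of 4107 cells led by Col1a1, with Ccl8, Retnla and Cd163 among its leading genes, was then named fibroblast-like. Dendritic-like cells held 384, 473, 340 and 406 against 341, 389, 229 and 213, and T cell-like cells 701, 633, 361 and 380 against 557, 311, 287 and 226. In dendritic-like and T cell-like cells the diabetic library was higher on all 4 days, though the dendritic interval of day 1, 0.966 to 1.31, spanned equality, and with cells named singly from markers the T cell-like ratio of day 1 was 0.924. The T cell-like class also sat in different clusters. Clusters 10 and 12 held 66 and 108 diabetic cells on day 3 against 172 and 78 control cells. On day 5 they held 226 and 256 against 117 and 49, and on day 7 512 and 163 against 216 and 274. Tnf had a median of 352 in cluster 10 and 444 in cluster 12. The gauge share of the neutrophil-like level was also subtracted, which assumes that free Tnf RNA follows the gauge genes. The gauge holds neutrophil genes only, so free RNA of other cells was not removed. Macrophage markers summed to 8555 CPM in T cell-like cells of the control library of day 5. In dendritic-like cells they reached 5312 in the control library of day 7, and their part in the remainders was not tested. The dendritic-like remainders were then 203 against 284 CPM on day 3 and 111 against 220 on day 5, and the T cell-like remainders 131 against 278 on day 5, so the control library was the higher there. On the other days the diabetic library stayed the higher. The dendritic-like remainders were 202 against 44.7 on day 1, a ratio of 4.52, and 208 against 146 on day 7. In T cell-like cells they were 519 against 261, 363 against 207 and 182 against 159 on days 1, 3 and 7. The fitted log2 differences of Tnf in dendritic-like and T cell-like cells were 0.47 ± 0.14 (adjusted p = 0.65) and 0.58 ± 0.18 (adjusted p = 1.00) by edgeR. Over the alternatives they ran from 0.32 to 1.19 and from 0.43 to 1.01.

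The day trend of the members was tested over both groups together. With day as a number and wound type as a term, all 8 members had falling slopes past the adjusted threshold of edgeR in neutrophil-like cells, beside 20.3% of all genes that fell. The count was 3 with cells named singly, beside 5.02% of all genes, and 3 with no regression of depth before clustering, beside 7.28%. A falling slope did not mean a fall in each group, since Tnfrsf1a went from 127 to 151 CPM between days 1 and 7 in the control group and diabetic Tnf was higher on day 5 than on day 1. The slopes were -0.45 ± 0.11 log2 per day for Tnf, -0.40 ± 0.07 for Nfkbiz, -0.36 ± 0.07 for Tnfaip3, -0.28 ± 0.07 for Nfkbia, -0.28 ± 0.06 for Tnfrsf1b, -0.23 ± 0.05 for Nfkb2, -0.20 ± 0.05 for Nfkb1 and -0.19 ± 0.05 for Tnfrsf1a, with adjusted p from 0.0018 to 0.013. These slopes depend on scaling. TMM factors, which correct for differences in RNA composition, ran from 0.628 to 1.45 between the neutrophil-like libraries, and without them the median slope of all genes moved from 0.01 to 0.17 log2 per day, with 4781 genes rising and 492 falling against 2188 and 2067 with them. Without TMM factors 5 members fell, beside 4.83% of all genes, and the slopes of Tnfrsf1a, Nfkb1 and Nfkb2 were -0.04, -0.04 and -0.07 and not called. The slopes of those still called were also flatter, at -0.28 for Tnf, -0.24 for Nfkbiz, -0.19 for Tnfaip3, -0.12 for Nfkbia and -0.11 for Tnfrsf1b. Without the control library of day 7, 4 members were called, beside 11.5% of all genes that fell. Those no longer called were Tnf, Tnfrsf1a, Nfkb1 and Nfkbia, with slopes of -0.38, -0.19, -0.20 and -0.28.

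RNA of other cells moved with day in this class. The 8 macrophage markers summed to 402, 2719, 1824 and 8526 CPM in diabetic and 573, 2226, 8094 and 10371 in control neutrophil-like cells, beside 14012 to 24062 in macrophage-like cells. The 8 neutrophil markers summed to 62049, 31743, 25093 and 16119 in diabetic and 49117, 34529, 15178 and 14315 in control cells. A list of 16 stress and immediate early genes summed to between 7925 and 15766, highest in the control library of day 3. When only cells with under 0.5% of their UMIs from macrophage markers were kept, Tnf stood at 3904, 4488, 4967 and 4351 in diabetic and 4886, 2883, 969 and 932 in control cells, with ratios of 0.799, 1.56, 5.12 and 4.67. The difference between groups was thus about as large in those cells, of which the control libraries of days 5 and 7 held 227 and 548. The limit lowers macrophage-marker RNA without removing it, and the amount left in each library is not given. Its part in the difference was not tested. In them 6 members fell with day, beside 10.2% of all genes, the exceptions being Tnfrsf1a at -0.13 (adjusted p = 0.095) and Nfkb1 at -0.13 (adjusted p = 0.052, edgeR).

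**Figure D4:**
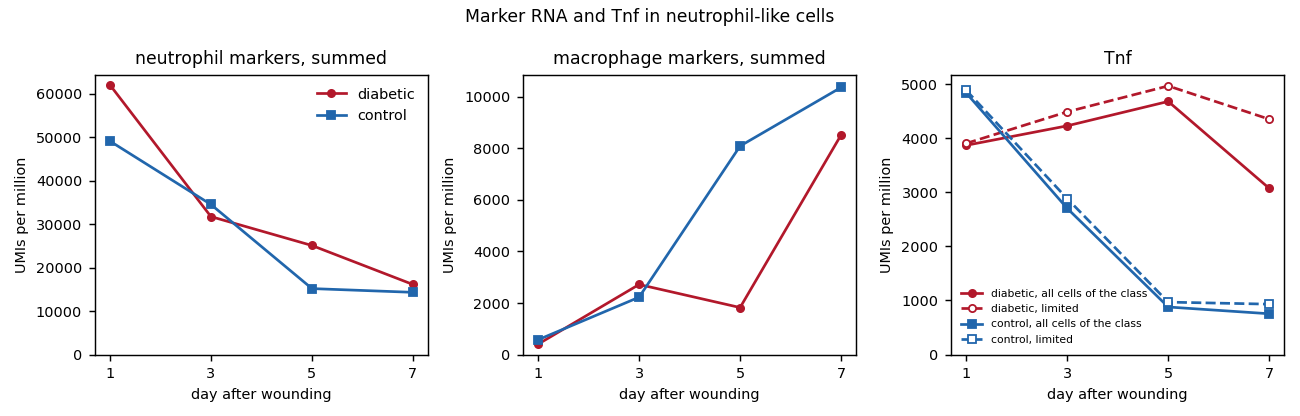
Summed neutrophil markers, summed macrophage markers and Tnf in neutrophil-like cells, in CPM by day, 1 library per point, diabetic in red and control in blue. In the Tnf panel dashed lines with open points hold only cells with under 0.5% of UMIs from macrophage markers, and they run close to the solid lines of all cells of the class except on day 7 of the diabetic wound group, 4351 against 3073.

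Over all cells 4 of the 8 members fell with day, beside 6.89% of all genes. They were Tnf at -0.35 ± 0.07 log2 per day, Nfkbiz at -0.31 ± 0.06, Tnfaip3 at -0.25 ± 0.06 and Tnfrsf1b at -0.22 ± 0.06, with adjusted p from 0.027 to 0.050 (edgeR). That count was 0 when the diabetic library of day 1 or day 7, or the control library of day 1 or day 7, was left out. No share of all genes is set beside those counts here, so they are not read as particular to the members. No member was called in monocyte-like, macrophage-like, dendritic-like or T cell-like cells, where 0.336%, 0.145%, 0.042% and 0.0117% of genes fell. At an unadjusted p under 0.05 there were 0, 0, 1 and 2 members in these classes, beside 14%, 11.3%, 11.7% and 7.38% of all genes. DESeq2 called 0, 0, 1 and 1 members, beside 0.977%, 0.674%, 0.557% and 0.505% of all genes that fell by that test. The lowest adjusted p among them by edgeR was 0.12, for Tnf in T cell-like cells at -0.20 ± 0.04, and Nfkbiz in dendritic-like cells followed at -0.13 ± 0.03 with 0.14.

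Whether the slopes differed between the groups was tested with a wound type by day term. No member was called in any of the 6 populations, and 0% of all genes were called in each. In neutrophil-like cells the slope of Tnf was 0.53 ± 0.14 log2 per day higher in the diabetic wound group, that of Tnfaip3 0.33 ± 0.11 higher and that of Nfkbiz 0.27 ± 0.13 higher, each with an adjusted p of 1.00 by edgeR. The 3 differences were 0.33, 0.22 and 0.16 with cells named singly from markers, the lowest among the alternatives. In the main fit Tnf, Tnfaip3 and Nfkbiz were the 3 members at an unadjusted p under 0.05 in neutrophil-like cells, beside 2.99% of all genes. The other 5 populations had 0 members, beside 1.73% of genes over all cells, 1.63% in monocyte-like, 2.16% in macrophage-like, 2.1% in dendritic-like and 3.6% in T cell-like cells, and DESeq2 called 0 members after adjustment, beside 0.00921% of genes in neutrophil-like cells, 0.0144% over all cells and 0% in the other 4 classes.

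The neutrophil-like class was not of one kind, and on days 1 and 5 the largest cluster differed between the groups. On day 1 it was cluster 8 in the diabetic library (36.6% of cells) and cluster 1 in the control library (44.5%), and on day 5 cluster 1 in the diabetic library (46.0%) and cluster 5 in the control library (48.1%). On day 3 cluster 0 was the largest in both groups and on day 7 cluster 5. Cluster 1 had 0 neutrophil markers among its 10 leading genes, though all 8 neutrophil markers were detected in it. At a clustering resolution of 1.6, a cluster of 1670 cells led by Il23a, Tnf, Csf1 and Ccl3 was not named and so lay outside the class. Cluster 1 was led by Il23a, Il1a, Ccl3 and Tnf itself, so its high Tnf is a description. It held 24.6%, 29.5%, 46.0% and 32.1% of diabetic neutrophil-like cells on days 1, 3, 5 and 7 and 44.5%, 9.04%, 10.1% and 3.72% of control ones. It carried 41.1%, 68.7%, 81.9% and 69.3% of the Tnf UMIs of the class in diabetic and 71.1%, 58.9%, 19.96% and 12.0% in control libraries. Cluster 5, led by Ighg2b, Cxcr2 and Igkc, held 88.2% of control cells on day 7 against 52.4% of diabetic ones. Clusters 8, led by the granule genes Ngp and Retnlg, and 11, led by interferon-induced genes such as Rsad2 and Ifit1, had too few cells for a value in the control libraries of days 5 and 7.

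Tnf differed between groups within clusters as well. In cluster 0, led by Cxcr2 and Lrg1, it stood at 1631, 1362, 1175 and 684 CPM in diabetic and 1481, 930, 729 and 407 in control libraries. In cluster 5 it stood at 2563, 1968, 2389 and 1465 against 1956, 1952, 892 and 716. The diabetic library was thus the higher on each day in both clusters, by little in cluster 5 on day 3. Macrophage-marker RNA also differed between the groups within these clusters. In cluster 0 on day 7 macrophage markers summed to 13260 CPM in the control library, above its 8842 of neutrophil markers, against 9053 and 19170 in the diabetic library. In cluster 5 on day 5 they summed to 9921, above 8809 of neutrophil markers, in the control library and to 6518 against 13547 in the diabetic library, and their part in the Tnf difference was not tested. In cluster 1 Tnf stood at 7652, 10135, 8265 and 6646 against 8041, 17479, 1023 and 2490. Unlike in clusters 0 and 5, the control library was thus the higher on days 1 and 3. The control values of days 5 and 7 rested on 27 and 41 cells. On day 5 macrophage markers summed to 7222 CPM in the control cells of cluster 1, above their 5303 of neutrophil markers, against 1532 and 18608 in the diabetic cells. The share of cells in each cluster and the level within it therefore both varied, and their parts in the class total were not tested.

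**Figure D5:**
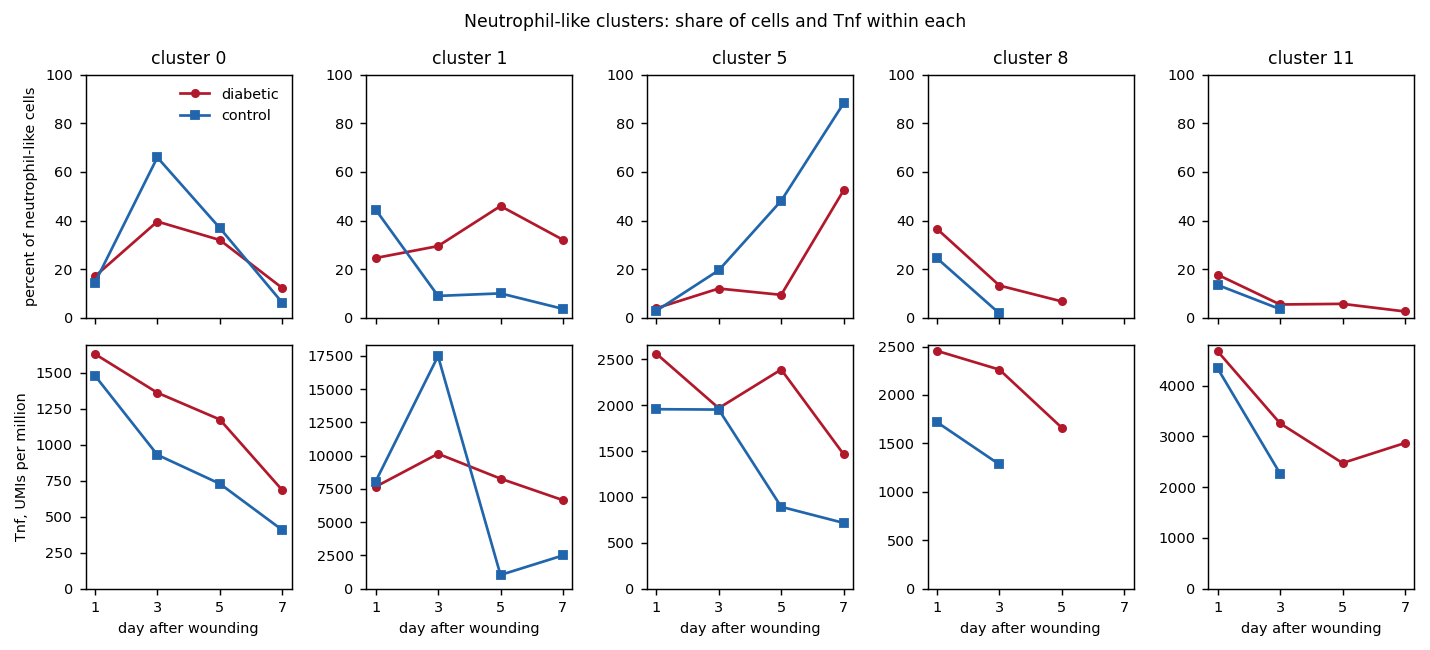
Share of neutrophil-like cells (upper row, percent) and Tnf level (lower row, CPM) in the 5 neutrophil-like clusters by day, 1 library per point, diabetic in red and control in blue. Cluster 1 peaks at 46.0% among diabetic libraries (day 5), and cluster 5 reaches 88.2% among control libraries (day 7).

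The wider pathway was read from lists of 71 genes. In neutrophil-like cells 43 of the 70 tested fell with day and 5 rose (edgeR), beside 20.3% of all genes that fell and 21.5% that rose, with a median slope of -0.21 log2 per day beside 0.01 over all genes. Without TMM factors 18 list genes fell and 15 rose, beside 4.83% and 47.0% of all genes, and 14 fell with cells named singly (5.02% of all genes) and 16 with no regression (7.28%). Leaving out the control library of day 1 gave 25 that fell (11.2%), and leaving out that of day 7 gave 26 (11.5%). Of 24 target genes 18 fell and 2 rose, of 14 other inhibitors 10 fell and 1 rose, of 13 receptor complex genes 5 fell, of 8 kinases tested 2 fell, of 8 other ligands and shedding genes 5 fell and 2 rose, and all 3 other Rel subunits fell. The steepest falls were those of Il1a, a cytokine (-0.66 ± 0.14), Ccl4, a chemokine (-0.46 ± 0.11), Traf1, an adaptor of TNF receptors (-0.46 ± 0.09), Lta, which encodes lymphotoxin-alpha (-0.38 ± 0.14, and not called without TMM factors), and Olr1, a receptor for oxidised lipoprotein (-0.38 ± 0.06). The genes that rose were Tnfsf12, which encodes the ligand TWEAK (0.47 ± 0.07), Tnip3, an A20-binding inhibitor (0.30 ± 0.07), Cd83 (0.28 ± 0.04), Cd40 (0.24 ± 0.06) and Tnfsf9, which encodes the ligand 4-1BBL (0.18 ± 0.05). Cd83 and Cd40 are better known from antigen-presenting cells, and the summed macrophage markers of this class were higher on day 7 than on day 1 in both groups, a part in the result that was not tested. Over all cells 22 of 71 fell and 0 rose, beside 6.89% and 3.45% of all genes, and the number that fell was 0 without the diabetic library of day 1, the diabetic library of day 7 or the control library of day 1, and 3 without the control library of day 7. The 22 that fell in the main fit were led by Il1a (-0.57), Clec4e (-0.41), Il1b (-0.38), Olr1 (-0.38) and Il1rn (-0.36). For the fits over all cells with a library left out no share of all genes is given, so their counts are not read as particular to the lists. In monocyte-like cells 1 list gene was called, Tnfsf14 at -0.23 ± 0.04. No list gene differed between the groups in any population by edgeR.

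Over 45 sums of library and class with at least 50 cells, Pearson correlations between pairs of members ran from -0.48, for Tnfrsf1a and Nfkb1, to 0.90, for Nfkbia and Nfkbiz. Tnf stood at 0.84 with Nfkbiz, 0.82 with Nfkbia and 0.30 with Tnfaip3, and Nfkb1 at -0.24 with Tnf and -0.11 with Nfkbia. These are descriptions over sums that share libraries and classes. Among 3390 genes the 3 most like Tnf were Cxcl2 (0.96), Clec4e (0.95) and Mapkapk2 (0.94), and the 3 most like Nfkbiz were Ccl3 (0.92), Gadd45a (0.92) and Grina (0.91). Nfkbia was most like Cd33 (0.92), Tnfrsf1b most like Smox (0.92), Tnfaip3 most like Lysmd3 (0.88), Tnfrsf1a most like Nfam1 (0.84), Nfkb2 most like Rab8b (0.83) and Nfkb1 most like Runx2 (0.81).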

How the data were processed

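CD45+ wound cells were measured by single-cell RNA sequencing in 8 libraries, and the deposited files hold raw UMI counts per gene and cell, made by the authors with fastp 0.20.1 per the submitters' processing notes. Those notes name mm9, whereas the study's methods name another annotation, and the platform also differs between its sources, so no coordinate was taken from the files. Cells with more than 200 genes and a mitochondrial share under 20% were kept. The study's text and its cell type tables give different numbers of cells, and 35215 were left here. Counts were scaled, 2000 variable genes without the members and 10 principal components were taken, and cells were clustered (Leiden, resolution 0.8; Python 3.11.15, scanpy 1.11.5) and named from fixed markers. Barcodes carry no sequence, so those shared between libraries could not be counted. Scrublet called 105 of 35215 cells (0.298%), too few to serve as a doublet test, and cells were not removed. UMIs were summed per library and class and tested with edgeR 4.0.16 (R 4.3.3) with TMM, filterByExpr and Benjamini-Hochberg adjustment over all genes at 0.05, with DESeq2 1.42.0 as an alternative. Day served as the block for the group test, with the libraries as the units. With 1 library per wound type and day, p-values do not measure the spread between pools alone. Change of the group difference between days enters the error of the group test, and departure from a straight course that of the day trend. The edgeR fits were tested on simulated data. Ratios carry exact 95% intervals. Named were all 8 members, up to 5 list genes per direction past the threshold and the 3 genes most like a member by correlation of log2(CPM + 10), where CPM are UMI counts per 1000000. The members and lists were chosen with earlier results of these data known. Exon positions come from GENCODE and promoters from RefSeq, both GRCm38.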

Additional observations from a re-analysis of the deposited data

How the results depend on the processing

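The group test paired the libraries of each day through the day block, and without that block it also called 0 members in each of the 6 populations. The labels number no other replicates. With no filter on low counts 1 member was called between the groups in neutrophil-like cells (Tnf, adjusted p = 0.023) and 1 in dendritic-like cells (Tnf, adjusted p = 0.044), and 1 differed in slope (Tnf in neutrophil-like cells, adjusted p = 0.040), all by edgeR. The count of members falling with day over all cells was 2 without TMM and ran from 0 to 5 with single libraries left out. In neutrophil-like cells it was 5 without TMM, 3 with cells named singly and 3 with no regression of depth before clustering, and ran from 4 to 8 with single libraries left out. In dendritic-like cells 1 member was called with DESeq2, with no filter, with log2 of day and with cells named singly, and in T cell-like cells 1 with DESeq2 and with no filter. Apart from DESeq2, no share of all genes is given for these fits. With no filter, 144 genes in all were called between the groups in neutrophil-like cells. No share is given for the calls with no filter named first, nor for the counts over all cells with single libraries left out. Such counts are therefore not read as particular to the members. The group difference of Tnfrsf1a in neutrophil-like cells changed sign without day 3 (0.13) and without day 7 (0.01), and ran from -0.23 to 0.13 with single days left out. The ratio of Nfkb1 in neutrophil-like cells on day 5 was 0.945 with no regression, that of Tnf on day 1 was 0.878 in macrophage-like cells at resolution 0.4 and 0.924 in T cell-like cells with cells named singly. With the free RNA gauge subtracted, the ratio of Tnf was 0.714 on day 3 and 0.504 on day 5 in dendritic-like cells and 0.473 on day 5 in T cell-like cells. It was 4.52 on day 1 and 1.42 on day 7 in dendritic-like cells, and 1.99, 1.76 and 1.14 on days 1, 3 and 7 in T cell-like cells. The causes of these changes were not tested. Over all genes, DESeq2 called 87 between the groups over all cells and 41 in neutrophil-like cells, against 0 and 2 by edgeR. With day over all cells, 460 genes rose and 918 fell, against 1897 and 483 without TMM. Leaving out the highest 5% of doublet scores, limiting macrophage-marker RNA in neutrophil-like cells and subtracting the gauge were chosen after seeing the data. The 4 diabetic and 4 control pools limit every test, and the control library of day 5 held 268 neutrophil-like cells.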
